A study of Mus musculus with 18 samples.

Results

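The change in RNA levels that 3T3-L1 cells undergo on becoming adipocytes was compared, gene by gene, between cells lacking the kinase RIPK3 and control cells. For each gene the quantity was the log2 change from day J0 to day J7 in RIPK3-/- cells minus the same change in control (CTL) cells, so that a positive value means that a gene rose more, or fell less, in RIPK3-/- cells. It was taken over the genes with read counts in all 4 groups, which were 11243 of the 15194 genes in the deposited tables, and 11027 of these passed the low-count filter and were tested. The other 216 had too few reads for a test. The tables hold only genes that the authors called in at least 1 of their comparisons, so every share of genes given here is a share of that preselected set.

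3T3-L1 is a mouse fibroblast line that turns into lipid-storing adipocytes when it is induced to differentiate. RNA sequencing was available for 18 libraries in 6 groups, and 12 libraries in 4 groups entered the comparison: undifferentiated CTL cells (J0_CTL), differentiated CTL cells (J7_CTL), undifferentiated RIPK3-/- cells (J0_RIPK3) and differentiated RIPK3-/- cells (J7_RIPK3), with 3 libraries each. The groups follow the sample titles, because in the 6 differentiated knockout samples the genotype entry names the other knockout of the series. Of 63 genes that differed by more than 2 log2 units between the J0 libraries of the knockouts, 60 differed in the same direction at J7 when the titles were used. The labels do not say how the knockout was made or whether the RIPK3-/- cells are 1 clone. They also do not tell whether replicate libraries come from different dishes of cells, and each p-value therefore reflects library-to-library spread, which may be technical.

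RIPK3 is a serine/threonine kinase that, when activated beside RIPK1, phosphorylates the pseudokinase MLKL, which then permeabilises the plasma membrane in the form of cell death called necroptosis. In 3T3-L1 cells, adipogenic induction is followed by a limited round of cell division known as mitotic clonal expansion, by withdrawal from the cell cycle and by induction of the transcription factors PPARγ and C/EBPα, which switch on the genes of lipid synthesis, storage and oxidation. As this happens the fibroblast programme of collagen-rich matrix and actin stress fibres is turned down.

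Library totals of the 12 libraries ranged from 20192400 to 36936478 counted reads, and the genes with values in all 4 groups held 83.7 to 93.2% of them. Levels are given as CPM, the reads of a gene scaled to a common library total, which compare 1 gene between libraries and not different genes. The adipocyte markers fitted the labels of both genotypes: 26 of 27 had counts, and their summed level was 602 to 613 CPM in J0_CTL, 629 to 659 CPM in J0_RIPK3, 33300 to 35000 CPM in J7_CTL and 38400 to 41100 CPM in J7_RIPK3. Among markers of other cell types, 3 of 9 skeletal muscle markers had counts and summed to 37.1 to 40.1 CPM in J7_CTL and 56.1 to 60.3 CPM in J7_RIPK3, and 3 of 6 epithelial markers summed to 31.5 to 36.2 CPM and 18.3 to 19.9 CPM.

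The targeted gene itself, Ripk3 (ENSMUSG00000022221, chr14:55784995-55788865, mm10), gave 19.6, 16.8 and 18.3 CPM in J0_CTL, 17.5, 19.2 and 18.2 CPM in J7_CTL, 14.7, 17.3 and 15.8 CPM in J0_RIPK3 and 10.2, 10.8 and 11.7 CPM in J7_RIPK3. The J7_RIPK3 libraries lay below all others, the J0 groups overlapped, and Ripk3 RNA was present in every library labelled RIPK3-/-, so its level does not check that label at J0. Its difference of changes was −0.51 ± 0.12 (log2, SE) with an adjusted p of 0.000785 by edgeR's quasi-likelihood test with Benjamini-Hochberg adjustment, the test behind every adjusted p given here. Mlkl, which encodes the kinase's substrate, gave 18.2, 19.8 and 18.6 CPM in J0_CTL, 25.4, 27.5 and 26.1 CPM in J7_CTL, 15.6, 14.5 and 17.7 CPM in J0_RIPK3 and 32.3, 26.5 and 28.4 CPM in J7_RIPK3. It rose in both genotypes and by more in RIPK3-/- cells, by 0.41 ± 0.11 on the log2 scale (adjusted p = 0.00219). Over the list of necroptosis genes, 10 were tested, 2 were higher and 4 lower, beside 18.4% and 20.7% of all tested genes.

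At an adjusted p under 0.05 the differentiation change differed between the genotypes for 4308 of 11027 genes (39.1%), of which 2027 (18.4%) were higher in RIPK3-/- cells and 2281 (20.7%) lower. The median size among called genes was 0.39 log2 units, and 599 genes (5.43%) differed by more than 1 log2 unit, of which 223 (2.02%) were higher and 376 (3.41%) lower. The changes were called for 10553 genes (95.7%) in CTL, where 48.6% of all genes rose and 47.1% fell, and for 10752 (97.5%) in RIPK3-/- cells, where 48.8% rose and 48.8% fell. The median over all tested genes was 0.01, with quartiles of −0.21 and 0.22. With the authors' own size factors in place of the trimmed-mean scaling the calls were 1542 higher and 2691 lower, so the share of higher calls moved from 47.1% to 36.4%, and with DESeq2's size factors it was 55.8%.

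Among the higher genes, 1262 rose in both genotypes and rose further without RIPK3, and 550 fell in both and fell less. Among the lower genes, 1255 fell in both genotypes and fell further, and 679 rose in both and rose less. Genes that moved in opposite directions, called in each genotype and in the difference, numbered 211 (1.91%): 154 rose in CTL and fell in RIPK3-/- cells, and 57 did the reverse.

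**Figure D1:**
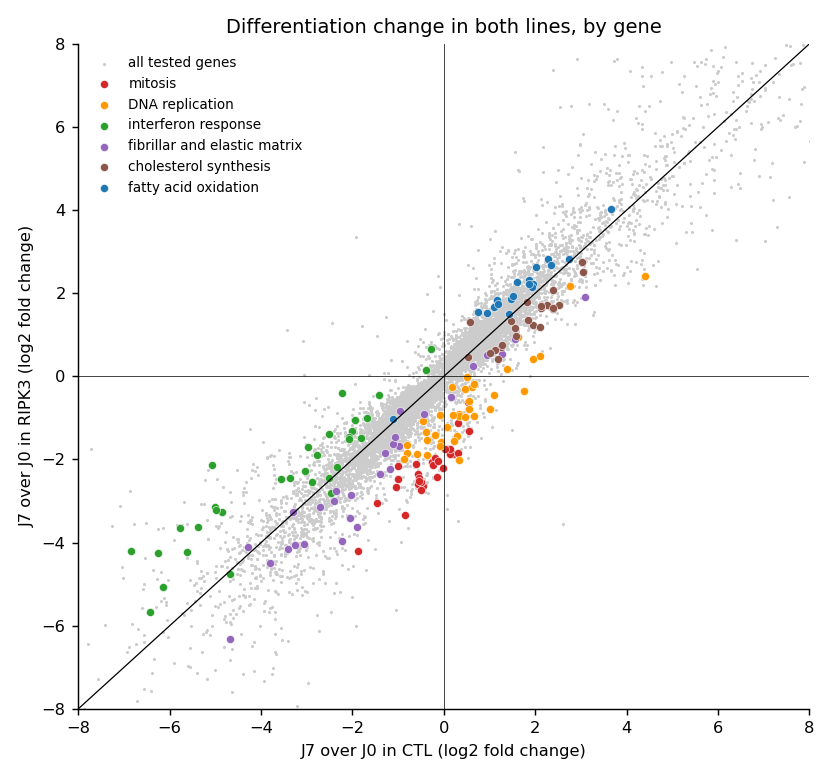
Change from J0 to J7 in CTL (x axis, log2) against the change in RIPK3-/- cells (y axis, log2) for the tested genes, with 6 gene lists in colour and a diagonal where both changes are equal. Axes stop at 8 log2 units, which leaves out 167 genes; the mitosis and DNA replication genes lie below the diagonal, and the called interferon-response and fatty acid oxidation genes above it.

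Cell division genes made up the only lists, of the 37 examined, in which every tested gene was called. All 31 tested genes of the mitosis list (kinesins, kinetochore and spindle proteins, and mitotic kinases) and all 37 tested DNA replication genes (origin licensing, helicase, polymerase and E2F genes) were lower in the difference of changes, with medians of −1.89 and −1.25 against 0.01 over all genes. Undifferentiated RIPK3-/- cells had more of these RNAs: 31 of 31 mitosis genes and 36 of 37 replication genes were higher than in CTL at J0, where 25.5% of all genes were. After differentiation the order was the other way round, with 28 of 31 and 31 of 37 lower in RIPK3-/- cells at J7, where 27.2% of all genes were lower. The J0 and J7 comparisons share their libraries with the difference of changes and are given beside it, not as separate evidence. Of the 11243 genes with counts in all 4 groups, 10474 were listed by the authors for differentiation in both genotypes. The others had such counts only because of called comparisons between genotypes, which favours calls among them. The number of lower mitosis genes among those listed in both is given with the processing. In bulk RNA, fewer cells of a type and less RNA per cell cannot be told apart, so a share of dividing cells cannot be read from these levels.

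The promoters of a mitosis gene and a replication gene are shown because cell-cycle genes of these kinds are known to be switched by short promoter elements, CHR elements (cell cycle genes homology regions) for mitotic genes and E2F sites for replication genes. Both are RefSeq promoters of build GRCm38.p6, 5′ to 3′ on the gene's strand from 250 bases before the start to 50 after. Top2a (topoisomerase IIα, chr11:99024140-99024439, minus strand) has 4 CHR matches in capitals, and Cdc6 (replication licensing, chr11:98907901-98908200, plus strand) has 1 E2F match in capitals.
Top2a: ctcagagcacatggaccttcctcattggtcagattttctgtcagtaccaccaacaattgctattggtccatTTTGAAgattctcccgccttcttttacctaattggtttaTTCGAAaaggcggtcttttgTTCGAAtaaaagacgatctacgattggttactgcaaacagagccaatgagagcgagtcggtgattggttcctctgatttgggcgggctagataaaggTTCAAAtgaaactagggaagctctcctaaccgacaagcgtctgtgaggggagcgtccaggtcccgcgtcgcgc
Cdc6: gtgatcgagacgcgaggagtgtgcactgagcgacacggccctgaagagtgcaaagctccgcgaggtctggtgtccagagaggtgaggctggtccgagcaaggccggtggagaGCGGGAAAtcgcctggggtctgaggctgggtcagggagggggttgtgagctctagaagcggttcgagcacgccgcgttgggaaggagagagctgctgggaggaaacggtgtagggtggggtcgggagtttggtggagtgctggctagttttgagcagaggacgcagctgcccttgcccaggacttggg

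CHR elements were searched as TTTGAA or TTCGAA, and E2F sites as TTTCCCGC, TTTGGCGC, TTTCGCGC or TTTGCCGC, on both strands, each motif being counted whether or not it overlapped another. Of the tested genes, 7983 had a promoter in the table. A CHR match stood in 18 of 24 mitosis promoters (75%) and in 14.1% of all 7983, and an E2F match in 9 of 31 replication promoters (29.0%) and in 3.92% of all. These matches are a description of the letters and not of binding.

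Top2a, which untangles DNA before chromosomes separate, gave 40.8, 39.3 and 40.9 CPM in J0_CTL, 47.7, 50.8 and 48.0 CPM in J7_CTL, 101, 97.9 and 96.5 CPM in J0_RIPK3 and 26.9, 29.3 and 26.0 CPM in J7_RIPK3. No groups overlapped, and the RIPK3-/- libraries were both the highest, at J0, and the lowest, at J7. The change was 0.21 in CTL and −1.88 in RIPK3-/- cells, and the difference of changes was −2.09 ± 0.07 (log2, SE; adjusted p = 2.1e-23).

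Mki67, the nuclear antigen used as a proliferation marker, had 31.7, 36.7 and 32.7 CPM in J0_CTL, 25, 26.4 and 25.5 CPM in J7_CTL, 89.6, 88.1 and 84.2 CPM in J0_RIPK3 and 13.0, 14.8 and 15.0 CPM in J7_RIPK3. It fell 1.31-fold in CTL and 6.08-fold in RIPK3-/- cells (folds are ratios of the reads summed over a group's libraries per summed library total, here and throughout), a difference of −2.18 ± 0.09 (adjusted p = 2.37e-20). Cenpf, a kinetochore protein, had the lowest value of the mitosis list, −2.50 ± 0.15 (adjusted p = 1.15e-15), falling 1.71-fold in CTL and 9.89-fold in RIPK3-/- cells. The highest value of the list was −1.14, so every tested mitosis gene differed by more than 1 log2 unit.

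**Figure D2:**
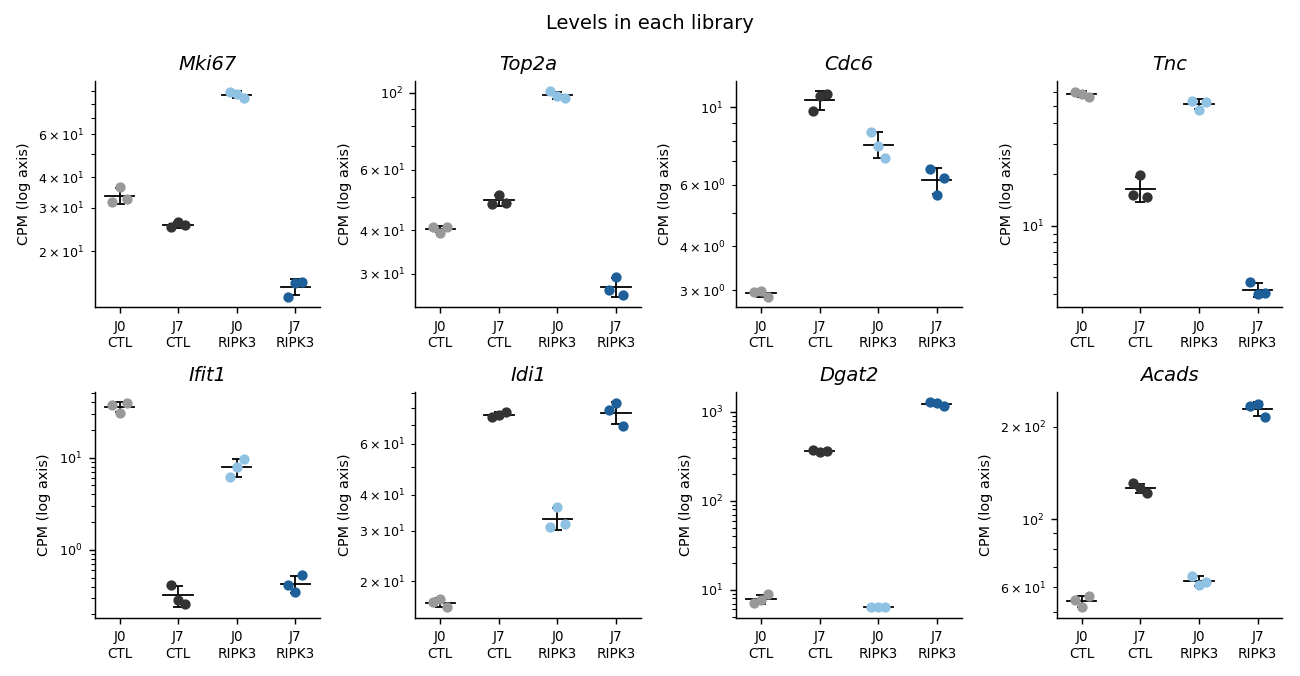
Level of 8 genes in each of the 12 libraries (CPM on a log axis), by group; points are libraries and bars the group mean ± SD (n = 3). Mki67 and Top2a are highest in J0_RIPK3 and lowest in J7_RIPK3, whereas Dgat2 and Acads are highest in J7_RIPK3.

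Replication genes differed from mitosis genes in the CTL cells, where 23 of 37 rose and 9 fell between J0 and J7, while in RIPK3-/- cells 6 rose and 29 fell. Opposite changes were called for 15 of the 37, against 1.91% of all genes. Cdc6, which loads the replicative helicase, went from 2.96, 2.98 and 2.87 CPM in J0_CTL to 9.74, 10.8 and 10.9 CPM in J7_CTL, and from 8.50, 7.76 and 7.17 CPM in J0_RIPK3 to 6.67, 5.60 and 6.27 CPM in J7_RIPK3. It rose 3.57-fold in CTL, fell by 0.36 on the log2 scale in RIPK3-/- cells (adjusted p = 0.0045), and had a difference of −2.12 ± 0.17 (adjusted p = 8.62e-13).

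Mcm5, a subunit of that helicase, had 24.8, 25.3 and 25.8 CPM in J0_CTL, 31.9, 32.2 and 33.1 CPM in J7_CTL, 50.8, 51.8 and 51.7 CPM in J0_RIPK3 and 17.7, 20.2 and 20.1 CPM in J7_RIPK3, again with no overlap of groups and a difference of −1.74 ± 0.08 (adjusted p = 1.06e-18). Outside the list, Clspn, an adaptor of the replication checkpoint, and Fancd2, which acts in crosslink repair at stalled forks, both gave −2.27 (SE 0.17 and 0.20; adjusted p = 7.36e-14 and 1.02e-11). Within it, the atypical E2F repressor E2f8 gave −2.34, the lowest value of the replication list. For its relative E2f2 the value was −1.99 ± 0.52 (adjusted p = 0.0023), and without J0_RIPK3 replicate 2 it was −1.29 with an adjusted p of 0.088.

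**Figure D3:**
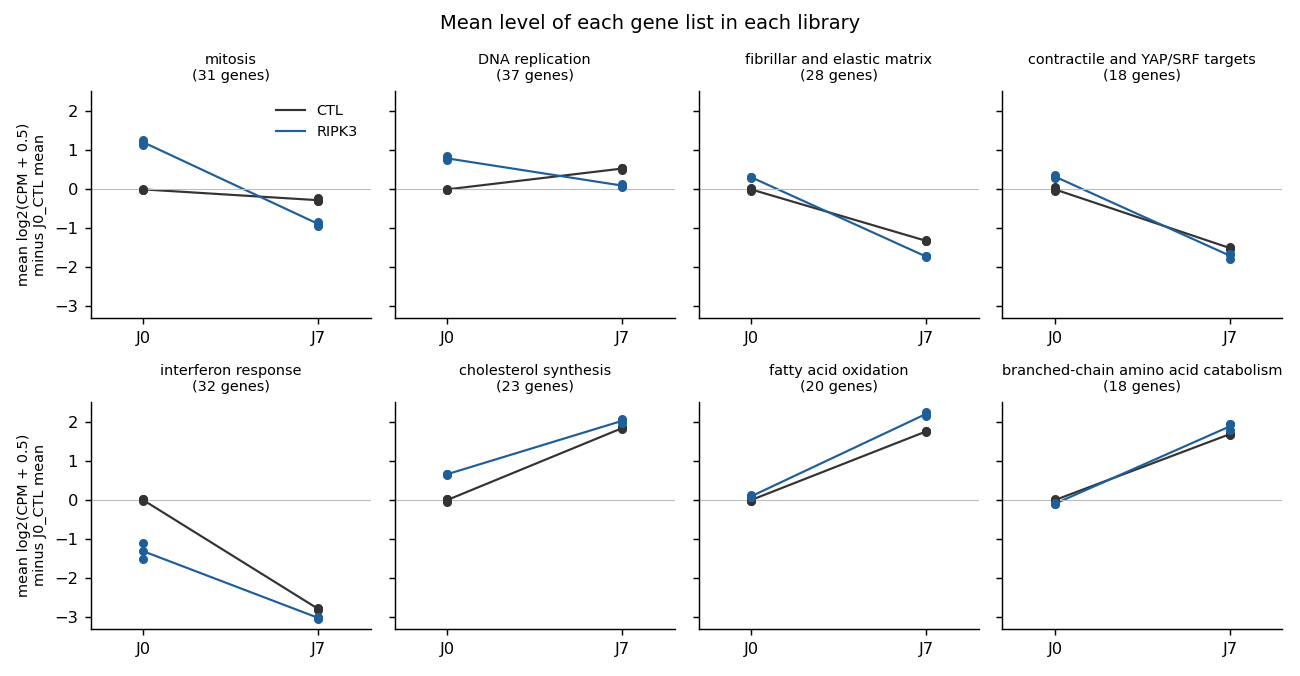
Mean level of the tested genes of 8 lists in each library (log2 of CPM + 0.5, minus the J0_CTL mean), CTL in dark and RIPK3-/- in blue; points are libraries and lines join the group means. For mitosis the RIPK3-/- libraries lie between 1.14 and 1.27 at J0 and between −0.94 and −0.83 at J7, whereas the CTL libraries stay between −0.31 and 0.01.

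Interferon-response genes fell on differentiation, 32 of 32 in CTL and 30 in RIPK3-/- cells, where 1 rose and 1 was not called. Of the 32 tested genes, 21 were higher in the difference of changes and none was lower (1 at an unadjusted p under 0.05 by edgeR, none by DESeq2), with a median of 0.93 against 0.01 over all genes, and 11 exceeded 1 log2 unit. Among all genes 18.4% were higher in the difference of changes and 20.7% lower. The genotypes stood apart before differentiation: 31 of 32 genes were lower in RIPK3-/- cells at J0, where 23.5% of all genes were. At J7 4 were higher and 11 lower, beside 27.4% and 27.2% of all genes. The median change was −2.93 in CTL and −2.36 in RIPK3-/- cells. Of 8 macrophage markers 3 had counts (Lyz2, Cd68 and Csf1r), none of those 3 at 0 in any group. Their sum was lower in RIPK3-/- cells at J0, with 73.4 to 78.4 CPM in J0_CTL and 36.4 to 41.2 CPM in J0_RIPK3. At J7 it was 11.9 to 13.3 CPM in J7_CTL and 11.0 to 13.0 CPM in J7_RIPK3. Taken singly, 1 of these markers was called lower and 1 higher in RIPK3-/- cells at J0, so the markers did not move together. Their part in the interferon result was not tested.

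Ifit1, an RNA-binding effector of the interferon response, is shown by its promoter because such genes are known to carry interferon-stimulated response elements (ISRE). The sequence is RefSeq's, GRCm38.p6, chr19:34640639-34640938, plus strand, with 2 matches to GAAA, 2 bases of any kind and GAAA in capitals.
Ifit1: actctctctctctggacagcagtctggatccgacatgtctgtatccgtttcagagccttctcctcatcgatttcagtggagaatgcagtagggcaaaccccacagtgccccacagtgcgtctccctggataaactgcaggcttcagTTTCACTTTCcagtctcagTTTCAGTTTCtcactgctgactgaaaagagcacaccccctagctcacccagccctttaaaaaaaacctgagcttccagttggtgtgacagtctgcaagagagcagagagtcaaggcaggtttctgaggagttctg

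An ISRE match (the same letters on either strand) stood in 17 of 23 interferon-response promoters (73.9%) and in 3.09% of all 7983 promoters.

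Ifit1 had 37.2, 30.4 and 39.1 CPM in J0_CTL, 6.18, 7.98 and 9.61 CPM in J0_RIPK3, 0.414, 0.284 and 0.261 CPM in J7_CTL and 0.417, 0.347 and 0.529 CPM in J7_RIPK3. The J0 groups were far apart and all 6 J7 libraries were below 1 CPM. The difference of changes, 2.64 ± 0.52 (log2, SE; adjusted p = 0.000142), came with a 112-fold fall in CTL and an 18.6-fold fall in RIPK3-/- cells, and at J7 the genotypes did not differ by the test (0.48, adjusted p = 0.432).

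Rtp4, an interferon-induced chaperone of membrane receptors, had 13.6, 12.5 and 13.0 CPM in J0_CTL, 3.70, 3.44 and 5.25 CPM in J0_RIPK3, 0.456, 0.487 and 0.261 CPM in J7_CTL and 1.13, 0.941 and 0.868 CPM in J7_RIPK3. Its groups were therefore lower in RIPK3-/- cells at J0 and higher at J7, and the difference was 2.95 ± 0.36 (adjusted p = 2.07e-08). Gbp2, a guanylate-binding GTPase, fell 4.49-fold in CTL and 1.31-fold in RIPK3-/- cells, a difference of 1.83 ± 0.18 (adjusted p = 9.47e-11).

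The list of class I antigen presentation genes, which are also inducible by interferon, had 3 of 14 tested genes higher and 3 lower, near the shares over all genes (18.4% and 20.7%). Nlrc5, the transactivator of class I genes, rose 1.94-fold in CTL and 3.68-fold in RIPK3-/- cells (adjusted p = 7.04e-07).

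Most matrix genes fell on differentiation, 22 of 28 in CTL and 23 in RIPK3-/- cells, while 6 and 5 rose. Of the 28 tested fibrillar and elastic matrix genes, 23 were lower in the difference of changes and none was higher (1 at an unadjusted p under 0.05 by edgeR, and 1 by DESeq2), with a median of −0.67; the median change was −1.65 in CTL and −2.56 in RIPK3-/- cells. The 5 that were not called were Eln at −0.73, Mfap2 at −0.41, Lox at 0.04, Fn1 at 0.11 and Col12a1 at 0.17. Of 26 tested collagen chains, a family added after the data were seen, 16 were lower and 5 higher. Among all genes 20.7% were lower and 18.4% higher, and 2 of the 5 higher collagen chains exceeded 1 log2 unit. At J0 16 of the 28 matrix genes were higher in RIPK3-/- cells and 4 lower, beside 25.5% and 23.5% of all genes. At J7 4 were higher and 19 lower, beside 27.4% and 27.2% of all genes.

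Col3a1, the type III fibrillar collagen chain, had 4380, 4090 and 4140 CPM in J0_CTL, 1910, 1970 and 1930 CPM in J7_CTL, 5320, 5560 and 5350 CPM in J0_RIPK3 and 1260, 1170 and 1130 CPM in J7_RIPK3. Its groups did not overlap, and the difference was −1.03 ± 0.05 (adjusted p = 3.97e-19). Tnc, the de-adhesive glycoprotein tenascin C, had 60.6, 59.1 and 56.1 CPM in J0_CTL, 15.1, 19.7 and 14.7 CPM in J7_CTL, 53.7, 47.3 and 52.9 CPM in J0_RIPK3 and 4.71, 4.01 and 4.04 CPM in J7_RIPK3. It fell 3.58-fold in CTL and 12.1-fold in RIPK3-/- cells, a difference of −1.72 ± 0.13 (adjusted p = 1.79e-11), and for the microfibril protein Mfap5 the difference was −1.73 ± 0.21 (adjusted p = 1.89e-08).

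The contractile and YAP/SRF target list, which holds smooth-muscle actin, calponins and tropomyosins, had 11 of 18 tested genes lower and none higher. Among all genes 20.7% were lower and 18.4% higher. Its median was −0.52, with changes of −1.61 in CTL and −2.26 in RIPK3-/- cells, and 1 of the 11 differed by more than 1 log2 unit. Cnn2, an actin-binding calponin, had 268, 256 and 267 CPM in J0_CTL, 17.7, 15.6 and 17.5 CPM in J7_CTL, 324, 338 and 327 CPM in J0_RIPK3 and 12, 12.1 and 12.5 CPM in J7_RIPK3, so the genotypes changed order between the days. Its difference was −0.75 ± 0.07 (adjusted p = 4.44e-11), and Acta2, smooth-muscle α-actin, fell 8.63-fold in CTL and 17.6-fold in RIPK3-/- cells.

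All 23 tested cholesterol synthesis genes rose on differentiation in both genotypes. In the difference of changes 18 were lower and 1, Cyp51, was higher, beside 20.7% and 18.4% of all genes, and the median was −0.48. The median change was 1.83 in CTL and 1.33 in RIPK3-/- cells. At J0 22 of the 23 were higher in RIPK3-/- cells, where 25.5% of all genes were. At J7 11 were higher and 1 lower, beside 27.4% and 27.2% of all genes.

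Idi1, the isomerase that supplies the isoprenoid building block, is shown by its promoter because CCAAT boxes are known as partner elements in sterol-regulated promoters. The sequence is RefSeq's, GRCm38.p6, chr13:8885356-8885655, plus strand, with 2 CCAAT matches in capitals.
Idi1: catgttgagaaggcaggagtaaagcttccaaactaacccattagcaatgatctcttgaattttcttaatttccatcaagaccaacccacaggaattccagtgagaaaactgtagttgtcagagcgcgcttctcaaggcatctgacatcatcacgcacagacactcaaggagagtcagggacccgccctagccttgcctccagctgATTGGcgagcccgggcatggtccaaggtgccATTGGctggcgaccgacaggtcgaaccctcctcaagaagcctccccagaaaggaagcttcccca

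CCAAT, searched on both strands, stood in 14 of 16 cholesterol synthesis promoters (87.5%), in 20 of 24 mitosis promoters (83.3%), in 19 of 31 replication promoters (61.3%) and in 39.5% of all 7983 promoters.

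Idi1 had 16.9, 17.4 and 16.2 CPM in J0_CTL, 74.4, 75.5 and 77.4 CPM in J7_CTL, 30.9, 36.3 and 31.6 CPM in J0_RIPK3 and 78.6, 83.1 and 69.5 CPM in J7_RIPK3. The groups were separate at J0 and overlapped at J7, where the test found no difference (0.04, adjusted p = 0.589). It rose 4.49-fold in CTL and 2.34-fold in RIPK3-/- cells, and its difference was −0.90 ± 0.08 (adjusted p = 2.99e-11). The sterol methyl oxidase Msmo1 rose 5.52-fold in CTL and 3.13-fold in RIPK3-/- cells, a difference of −0.78 ± 0.05 (adjusted p = 1.08e-15).

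Cyp51, the lanosterol demethylase, went the other way, from 27.4, 26.4 and 28.3 CPM in J0_CTL to 42.3, 45.7 and 40.4 CPM in J7_CTL, and from 77.6, 80.2 and 77.3 CPM in J0_RIPK3 to 213, 199 and 185 CPM in J7_RIPK3. It was above CTL on both days, and its difference was 0.74 ± 0.07 (adjusted p = 3.55e-11). Cyp51 lies on chromosome 5, whose genes as a whole were higher in RIPK3-/- cells (described with the chromosomes).

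Most fatty acid oxidation genes rose on differentiation, 19 of 20 in CTL and 19 in RIPK3-/- cells, while 1 fell in each. Of the 20 tested genes, 16 were higher in the difference of changes and none was lower, with a median of 0.41 and changes of 1.73 in CTL and 2.18 in RIPK3-/- cells. The 4 not called were Ehhadh at −1.36, Cpt1a at 0.07, Crat at 0.08 and Etfa at 0.09. None of the 16 exceeded 1 log2 unit, and among all genes 18.4% were higher and 20.7% lower. At J0 9 of the 20 were already higher in RIPK3-/- cells and 2 lower, where 25.5% and 23.5% of all genes were, and at J7 18 of 20 were higher in RIPK3-/- cells, where 27.4% of all genes were.

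Acads, the short-chain acyl-CoA dehydrogenase, had 54.5, 51.6 and 56.2 CPM in J0_CTL, 131, 126 and 122 CPM in J7_CTL, 65.3, 61.1 and 62.5 CPM in J0_RIPK3 and 234, 238 and 215 CPM in J7_RIPK3. It rose 2.33-fold in CTL and 3.62-fold in RIPK3-/- cells, a difference of 0.67 ± 0.06 (adjusted p = 2.37e-12). The mitochondrial thiolase Acaa2 gave 0.79 ± 0.06 (adjusted p = 5.85e-14) and the dienoyl-CoA reductase Decr1 0.68 ± 0.05 (adjusted p = 8.1e-13). Acads lies on chromosome 5 and Acaa2 on chromosome 18, both among the chromosomes with raised levels, whereas Decr1 lies on chromosome 4.

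Catabolism of branched-chain amino acids, which feeds acetyl and propionyl units into lipid metabolism in adipocytes, gave 15 higher of 18 tested and none lower, with a median of 0.34. Among all genes 18.4% were higher and 20.7% lower. The higher count was 13 with the authors' size factors and when libraries were scaled by total reads, and none of the 15 exceeded 1 log2 unit. Mccc1, a subunit of methylcrotonyl-CoA carboxylase, had 31.6, 31.9 and 33.2 CPM in J0_CTL, 76.2, 73.1 and 76.8 CPM in J7_CTL, 28.9, 29.5 and 30.5 CPM in J0_RIPK3 and 134, 132 and 125 CPM in J7_RIPK3. The RIPK3-/- libraries were lower at J0 and higher at J7, and the difference was 0.94 ± 0.06 (adjusted p = 6.69e-15).

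The respiratory chain list had 16 of 28 tested genes higher and 3 lower, and the citric acid cycle list 11 of 17 higher and 1 lower, both with a median of 0.16. Beside these, 18.4% of all genes were higher and 20.7% lower. Within the chain, Cycs, cytochrome c, was lower at −0.39. With the authors' size factors the higher counts were 8 and 6, and with DESeq2's size factors 19 and 13, so these lists depended on the scaling.

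**Figure D4:**
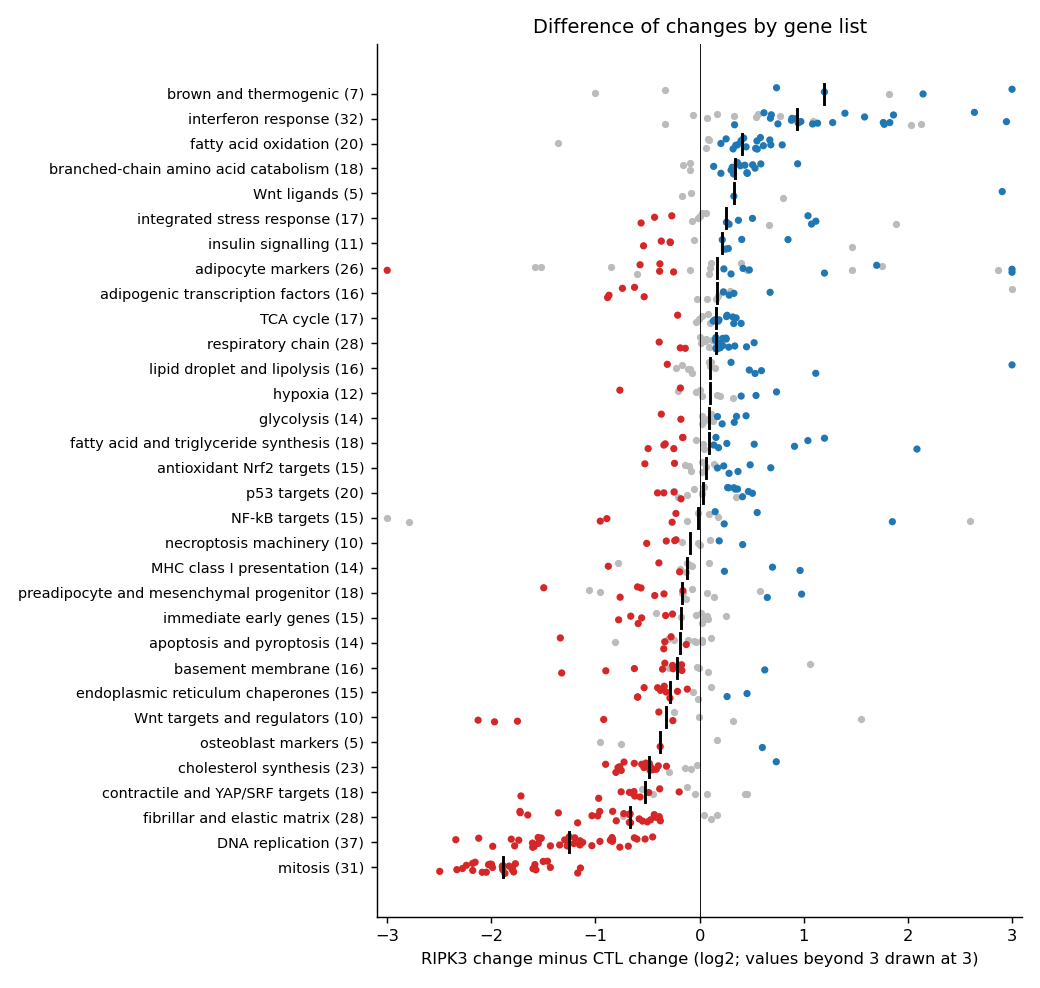
Difference of changes (log2, RIPK3-/- minus CTL) for each tested gene of the lists with at least 5 tested genes; blue points are called higher, red lower and grey not called, the black bar is the list median, and values beyond 3 are drawn at 3. The mitosis and replication points all lie below 0, and the called points of the fatty acid oxidation list all lie above it.

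Of 18 tested lipid synthesis genes 9 were higher and 6 lower, beside 18.4% and 20.7% of all genes. Dgat2, which adds the last acyl chain of triglyceride, had 7.16, 7.62 and 8.88 CPM in J0_CTL, 373, 354 and 363 CPM in J7_CTL, 6.42, 6.32 and 6.42 CPM in J0_RIPK3 and 1280, 1250 and 1160 CPM in J7_RIPK3. It rose 46.6-fold in CTL and 192-fold in RIPK3-/- cells, and the difference was 2.09 ± 0.09 (adjusted p = 4.78e-20).

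The acyltransferases that act earlier in the same route were also higher, Agpat2 by 1.2 ± 0.07 (adjusted p = 3.9e-13) and Gpam by 1.04 ± 0.06 (adjusted p = 8.44e-17). Gpam rose 3.46-fold in CTL and 6.93-fold in RIPK3-/- cells. Fatty acid synthase, Fasn, was higher by 0.26. The desaturase genes Scd1 at 0.04 and Scd2 at −0.03 were not called, and Fads1 and Fads2 were lower, by −0.49 and −0.33, and so were the elongases Elovl5 at −0.34 and Elovl6 at −0.25. Scd3, a further stearoyl-CoA desaturase gene that is not on the list and had 9 and 6 reads at J0, was higher at 2.22 (adjusted p = 0.0246), and its adjusted p was 0.056 without J0_CTL replicate 2 and 0.069 without J0_CTL replicate 3. Dgat1, the other enzyme of the final step, was lower at −0.16.

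The adipogenic transcription factors had 4 of 16 tested genes higher and 5 lower, close to the shares over all genes (18.4% and 20.7%), and single members are given as such. Pparg, the nuclear receptor that drives adipogenesis, had 25.6, 27.4 and 26.3 CPM in J0_CTL, 499, 487 and 488 CPM in J7_CTL, 32.7, 30.5 and 31.3 CPM in J0_RIPK3 and 387, 370 and 353 CPM in J7_RIPK3. It rose 18.6-fold in CTL and 11.7-fold in RIPK3-/- cells, was lower in RIPK3-/- cells at J7 by −0.39, and had an adjusted p of 1.4e-11 for the difference of changes.

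Cebpa, its partner C/EBPα, had 16.3, 16.2 and 18.3 CPM in J0_CTL, 415, 387 and 388 CPM in J7_CTL, 30.1, 30.8 and 30.5 CPM in J0_RIPK3 and 393, 389 and 365 CPM in J7_RIPK3. The J7 groups overlapped (−0.04, adjusted p = 0.34) and the J0 groups did not, and the difference was −0.87 ± 0.06 (adjusted p = 4.14e-14). The early factor Cebpd gave −0.74 and Ebf2 −0.88, the latter on the part of chromosome 14 with lowered levels, while the oxysterol receptor LXRα gene Nr1h3 gave 0.68 and Srebf1, the master regulator of fatty acid synthesis, 0.33.

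Of 26 tested adipocyte markers 8 were higher and 5 lower, beside 18.4% and 20.7% of all genes, so these counts are no result about the list as a whole. Fabp4, the adipocyte fatty acid binding protein, reached 7660, 7630 and 8110 CPM in J7_CTL and 8950, 8320 and 7820 CPM in J7_RIPK3, which overlapped; it rose 1290-fold in CTL and 966-fold in RIPK3-/- cells (−0.38 ± 0.09, adjusted p = 0.00123). Lpl, lipoprotein lipase, was higher in J7_RIPK3, at 9690, 9890 and 9460 CPM against 7520, 7240 and 7550 CPM, with a difference of 0.23 ± 0.04 (adjusted p = 2.46e-05). For Adipoq, adiponectin, J7 levels were 1740, 1700 and 1820 CPM in CTL and 1840, 1860 and 1670 CPM in RIPK3-/- cells and overlapped; the J0 groups held 0 and 8 reads, so its fitted value, −4.36, depends on edgeR's prior count.

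Some of the largest values belonged to single genes outside these groups. Acaa1b, a peroxisomal thiolase, had 0.575, 0.583 and 0.807 CPM in J0_CTL, 4.19, 3.69 and 4.03 CPM in J7_CTL, 0.551, 0.523 and 0.433 CPM in J0_RIPK3 and 46.4, 46.2 and 44.3 CPM in J7_RIPK3. It rose 6.18-fold in CTL and 92.5-fold in RIPK3-/- cells (3.94 ± 0.31, adjusted p = 4.06e-13). Nrg4, a growth factor secreted by brown fat, rose 5.79-fold and 26.6-fold (2.22 ± 0.30, adjusted p = 1.28e-07).

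Cidea, a lipid droplet protein that marks brown and beige fat, had 1 read in all J0_CTL libraries together and 0 in J0_RIPK3, and at J7 2.11, 2.44 and 2.83 CPM in CTL against 70.6, 66.9 and 57.9 CPM in RIPK3-/- cells, 26.2-fold higher. It lies on chromosome 18, and its call rested on those J0 reads: the adjusted p for the difference of changes was 0.0477, and without J0_CTL replicate 1 it was 1.00. Of the brown fat list 7 genes were tested, and 4 were higher and none lower, beside 18.4% and 20.7% of all genes.

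At the lower end, Col8a1, a short-chain collagen, had 11.8, 12.3 and 12.5 CPM in J0_CTL, 3.15, 2.35 and 2.39 CPM in J7_CTL, 43.4, 47.4 and 42.6 CPM in J0_RIPK3 and 1.25, 1.24 and 1.25 CPM in J7_RIPK3. It fell 4.65-fold in CTL and 35.4-fold in RIPK3-/- cells (−2.90 ± 0.19, adjusted p = 6.71e-15). The protease inhibitor Slpi fell 11.3-fold and 66.7-fold (−2.50 ± 0.32, adjusted p = 5.66e-08). Msln, mesothelin, rose 26.4-fold in CTL and 4.62-fold in RIPK3-/- cells (−2.47 ± 0.27, adjusted p = 5.08e-09).

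In the opposite direction, L1cam, a cell adhesion molecule, had 8.65, 7.96 and 7.71 CPM in J0_CTL, 7.04, 8.52 and 8.54 CPM in J7_CTL, 2.36, 2.44 and 2.46 CPM in J0_RIPK3 and 10.2, 11.0 and 11.9 CPM in J7_RIPK3. The CTL groups overlapped and the RIPK3-/- groups did not, and the difference was 2.24 ± 0.17 (adjusted p = 2.65e-13). Prdm11, a PR-domain protein, fell 6.61-fold in CTL and 1.40-fold in RIPK3-/- cells (2.28 ± 0.13, adjusted p = 8.58e-17).

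The differences were not spread evenly over the genome. On chromosome 5, 281 of 789 tested genes (35.6%) were higher in the difference of changes and 93 lower, and the median RIPK3-/- level relative to CTL was 0.25 at J0 and 0.39 at J7 on the log2 scale. Chromosome 18 had 24.2% of 310 genes higher, with medians of 0.20 at J0 and 0.29 at J7. Chromosome 6 had 30.8% of 603 genes lower, with medians of −0.09 and −0.19. Over the 16 chromosomes other than these and chromosome 14, 11.3 to 23.1% of genes were higher and 16.5 to 25.7% lower. The higher share of chromosome 18 was barely outside that range, and its lower share was 11.6%. The medians of the 16 chromosomes lay between −0.084 and 0.097 at J0 and between −0.088 and 0.116 at J7.

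Chromosome 14, which carries Ripk3, differed between the sides of that gene. Above the Ripk3 start (higher coordinates), 68 of 174 tested genes (39.1%) were lower in the difference of changes, with medians of −0.23 at J0 and −0.40 at J7; below it, 32 of 204 (15.7%) were lower, with medians of −0.03 and −0.01. Of the 40 tested genes nearest above it (chr14:55823144-63543982) 28 were lower at J0 and 32 at J7, where 23.5% and 27.2% of all genes were. Of the 40 nearest below it 15 were lower at J0, with a median of −0.10, and 9 at J7, with a median of 0.04. DNA copy number was not measured, and its part in these levels was not tested. The pattern was noticed in the data and no test was made of it.

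**Figure D5:**
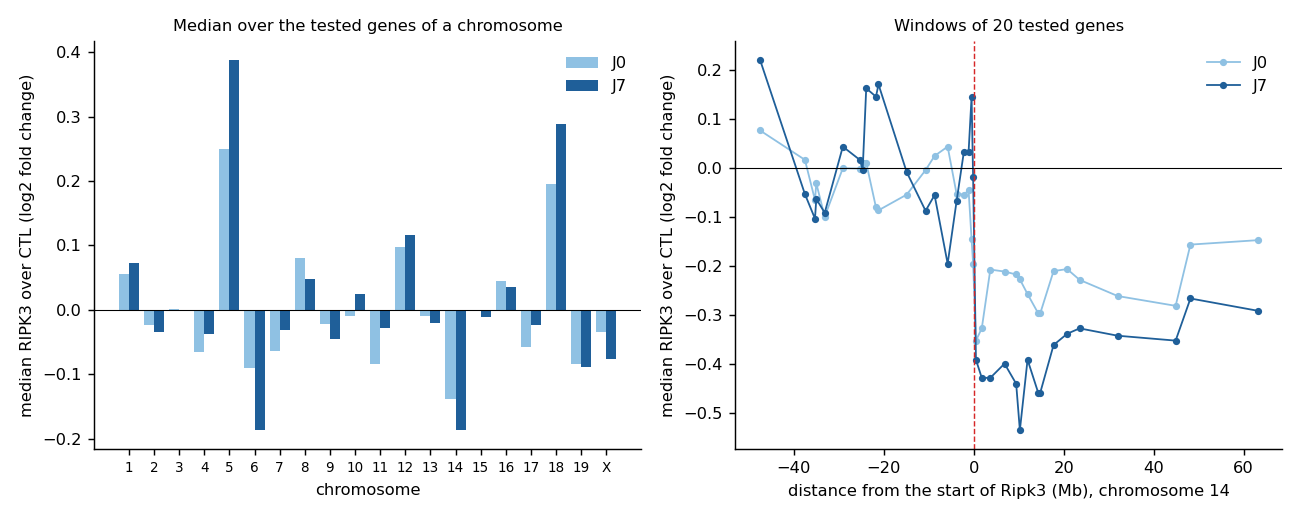
Left, median log2 level of RIPK3-/- over CTL by chromosome at J0 and J7; right, the same medians in windows of 20 tested genes along chromosome 14 by distance from the Ripk3 start (Mb), with Ripk3 at the dashed line. Chromosome 5 lies highest at both days (0.25 and 0.39), and the windows of chromosome 14 drop beyond Ripk3.

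With chromosomes 5, 6 and 18 and the part of chromosome 14 above Ripk3 left out, a set chosen after these values were seen, 1546 genes were higher and 1897 lower among 9151. Of the genes then left, 25 of 25 were lower for mitosis, 31 of 31 for replication, 19 of 22 for matrix and 10 of 16 for contraction, and 19 of 27 were higher for the interferon response, 12 of 16 for fatty acid oxidation and 14 of 15 for branched-chain amino acids. Cholesterol synthesis had 14 of 18 lower and no higher gene. In each of these lists the number of calls was that of the full fit over the same genes. Of the 114 genes named by rule, 88 were in this fit, and these kept their direction and call. The other named genes lay on the parts left out, and not each of them is marked so above.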

How the data were processed

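RNA was sequenced from 3T3-L1 cells, 18 libraries in 6 groups, of which 12 were compared here. Read counts per gene, normalised counts (a count signal divided by a size factor), FPKM, gene length, log2 fold changes and adjusted p-values were deposited by the authors in 7 comparison tables, which list only genes with an adjusted p under 0.05. The submitters' processing notes list build mm10, featureCounts 1.5.0-p3, HISAT2, FastQC 0.11.9 and DESeq2, without their roles. The 14 pathway and ontology tables were not used.

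Counts were joined over the tables by gene identifier (88950 repeated values, 0 of which disagreed). Library totals were recovered from the deposited counts, FPKM and gene lengths. A gene is therefore present only where the authors called it in enough comparisons for all 4 groups, so the share of called genes is that of a preselected set. edgeR 4.0.16 (R 4.3.3) was used with filterByExpr, trimmed-mean (TMM) scaling and a robust quasi-likelihood fit over the 12 libraries, and the interaction was tested with Benjamini-Hochberg adjustment over all 11027 genes. The code was tested on simulated data. DESeq2 1.42.0 was an alternative.

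Replicate pairs differed by more than sampling noise (chi-square per gene 2.83 to 8.34), so none was counted as 1 library. Whether counting used strand is not given in the sources used here, so antisense or overlapping genes and near-identical copies are uncertain. The comparison and gene lists were chosen with earlier results of these data known. Genes were named by rule: Ripk3 and Mlkl, the 10 highest and 10 lowest called protein-coding genes with a mean of at least 5 CPM, and the 5 largest with opposite changes under the same minimum. The rule also took the 3 largest called members of each list with a mean of at least 1 CPM, and Pparg, Cebpa, Adipoq, Fabp4 and Mki67. Others (Col3a1, Cyp51, Mcm5, Top2a, Lpl, Nr1h3, Srebf1, the further lipid synthesis genes, and list members that were not called) were added after their values were seen. Some genes that the rule names are not reported here. For 16 called genes with a group at 0 reads the fitted value depends on edgeR's prior count.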

Additional observations from a re-analysis of the deposited data

Results flagged for a closer look

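The differentiation change differed between the genotypes by the interaction test for 2027 genes that were higher and 2281 that were lower in RIPK3-/- than in CTL cells. Named here are the 5 protein-coding genes with the largest difference among those with opposite changes and a mean of at least 5 CPM. All 5 rose in CTL and fell in RIPK3-/- cells, and all 5 act in the cell cycle.

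The genes that act in DNA replication or at stalled forks were Clspn at −2.27, Fancd2 at −2.27 and Cdc6 at −2.12 on the log2 scale. The mitotic kinase gene Pbk, at −2.16, had 4.69, 4.46 and 3.71 CPM in J0_CTL, 5.10, 5.97 and 5.82 CPM in J7_CTL, 9.06, 9.46 and 8.47 CPM in J0_RIPK3 and 3.08, 2.62 and 2.00 CPM in J7_RIPK3. It lies on chromosome 14 above Ripk3, where levels were lowered at J0 as well, although Pbk itself was higher in RIPK3-/- cells at J0. The kinetochore gene Spc25, at −2.12, had 6.29, 6.41 and 6.01 CPM in J0_CTL, 7.71, 9.78 and 7.91 CPM in J7_CTL, 15.9, 16 and 13.1 CPM in J0_RIPK3 and 4.46, 4.90 and 4.27 CPM in J7_RIPK3. For both genes the J0_RIPK3 libraries were the highest and the J7_RIPK3 libraries the lowest.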

How the results depend on the processing

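The deposited tables hold only genes the authors called, and fitted values of genes with few J0 reads are imprecise. Over 23 alternatives, 2474 values of the 114 named genes kept their direction and call, 114 kept only their direction and none turned. Of the values that kept only their direction, 64 came from the threshold of an absolute log2 over 1. Using summed listed counts as library size gave the same 4308 calls as the main fit. All 114 named genes were called in the main fit, so these counts do not describe genes that were not called. Counts of higher and lower genes were 1675 and 2543 when libraries were scaled by total reads, 1542 and 2691 with the authors' size factors, 2475 and 1963 with DESeq2's size factors in edgeR, 2366 and 1914 with DESeq2's own test, 2028 and 2270 without the low-count filter, and 1852 to 1981 and 2038 to 2227 when each replicate was left out in turn. Opposite changes then numbered 194 to 210.

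Respiratory chain genes called higher numbered 10 under total-read scaling. The authors' size factors gave 8, and 6 citric acid cycle genes. Under the scalings tried, no other count of at least 10 genes in 1 direction moved by over 1.5 times among the 37 lists. Among genes listed in both differentiation tables, which are fewer, 20 mitosis genes were lower. Beyond an absolute log2 of 1 the counts were 223 higher, 376 lower and 81 opposite, with 11 higher interferon genes, 6 lower matrix genes and 1 lower contractile gene, and 0 for fatty acid oxidation, branched-chain amino acids, respiratory chain, citric acid cycle, cholesterol synthesis and endoplasmic reticulum chaperones.

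Calls lost when at least 1 replicate was left out included Ccl2, Fos, Mfap4, Mettl7b, Prl2c5, Cidea, Retn, Scd3, Car3 and E2f2. The replicate numbers did not pair the libraries (correlations of −0.064 to 0.079 over 18 pairs), and with a replicate block the counts were 2039 and 2281. Where a list of at least 5 tested genes had no gene in 1 direction, DESeq2's test found 1 matrix gene higher and none in the other lists, and edgeR's at an unadjusted p under 0.05 found 1 matrix gene and 1 Wnt target higher and 1 interferon gene lower.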

Other observations

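Of 15 tested endoplasmic reticulum chaperone genes 10 were lower in the difference of changes and 2 higher, while of 17 integrated stress response genes 7 were higher and 3 lower (20.7% of all genes were lower and 18.4% higher). Pdia4, a disulfide isomerase, had 255, 224 and 236 CPM in J0_CTL, 689, 693 and 703 CPM in J7_CTL, 240, 257 and 239 CPM in J0_RIPK3 and 467, 473 and 443 CPM in J7_RIPK3, so the groups overlapped at J0 and were separate at J7 (−0.60 ± 0.05, adjusted p = 5.91e-12). Trib3, a pseudokinase induced by stress, had 24.7, 25.3 and 23 CPM in J0_CTL, 199, 208 and 204 CPM in J7_CTL, 14.6, 15.6 and 18.1 CPM in J0_RIPK3 and 293, 286 and 259 CPM in J7_RIPK3. It rose 8.34-fold in CTL and 17.0-fold in RIPK3-/- cells. Ddit3, the stress factor CHOP, rose 3.52-fold and 7.45-fold.

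Wnt targets and regulators had 6 of 10 tested genes lower and none higher, and immediate early genes 6 of 15 lower and none higher. Over all genes 20.7% were lower and 18.4% higher. The Wnt antagonist Sfrp2 had 27.3, 25.7 and 26.5 CPM in J0_CTL, 1.2, 1.22 and 1.38 CPM in J7_CTL, 57.0, 56.4 and 55.3 CPM in J0_RIPK3 and 0.792, 0.594 and 0.906 CPM in J7_RIPK3, a difference of −1.75 ± 0.23 (adjusted p = 7.12e-08). Bid, a BH3-only protein that links caspase cleavage to mitochondria, rose 2.94-fold in CTL and 1.14-fold in RIPK3-/- cells. No gene of the apoptosis list was higher while 5 of 14 (35.7%) were lower, beside the same shares over all genes.

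The basement membrane list had 9 of 16 tested genes lower and 1 higher, beside 20.7% and 18.4% of all genes. Nid2, a linker of laminin and collagen IV, had 68.6, 69.4 and 64.4 CPM in J0_CTL, 74.5, 72.4 and 71.2 CPM in J7_CTL, 45.0, 39.9 and 43.9 CPM in J0_RIPK3 and 15.5, 20.5 and 18.2 CPM in J7_RIPK3. It lies on chromosome 14 below Ripk3, outside the lowered part.

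Among gene families added after the data were seen, integrin subunits had 9 of 20 tested genes lower and none higher, ADAMTS proteases 9 of 13 lower, tubulins 8 of 11 lower and peroxins, which build peroxisomes, 6 of 15 higher. Over all genes 20.7% were lower and 18.4% higher. Cytosolic ribosomal proteins had 15 of 65 higher (23.1%, near the share over all genes) and none lower, with a median of 0.09. The higher count was 7 with the authors' size factors, 9 when libraries were scaled by total reads and 24 by DESeq2. For peroxins it was 4, 4 and 9.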
